A study of Caenorhabditis elegans with 2 samples.

Results

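The insulin receptor to DAF-16 signalling core of the nematode Caenorhabditis elegans was followed in worms exposed to titanium dioxide nanoparticles. The core was taken as 10 genes, chosen by symbol: daf-2, age-1, pdk-1, akt-1, akt-2, sgk-1, daf-18, daf-16, ist-1 and ftt-2. A probe set was used where the array annotation gave it exactly 1 gene symbol and that symbol was one of the 10. This gave 27 probe sets of 20766 that name 1 gene, and 10 genes of 17118. All 10 symbols were found, and no probe set named a core gene together with another gene.

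One array held RNA of synchronised wild-type N2 worms exposed in the dark to 500 µg/ml of anatase, a crystal form of titanium dioxide, as nanoparticles in the liquid worm medium S-medium. The other held RNA of wild-type N2 control worms, which the labels give as exposed to none and without anatase. N2 is the standard laboratory strain, and whole worms were extracted, so every tissue contributes to each value. The sources used here state neither the stage of the worms nor how long they were exposed. With 1 array in each group there was no replicate error and no test, and every difference below compares these arrays only.

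In this pathway insulin-like peptides bind DAF-2, the worm's insulin and insulin-like growth factor receptor. DAF-2 acts through the PI3-kinase AGE-1, which makes a phosphoinositide lipid at the membrane. PDK-1 and that lipid activate the kinases AKT-1 and AKT-2, which phosphorylate the FOXO transcription factor DAF-16. Phosphorylated DAF-16 is bound by 14-3-3 proteins and held in the cytoplasm. When the pathway is less active, DAF-16 enters the nucleus and switches genes of stress resistance, metabolism and long life. Its best known control points are phosphorylation and nuclear entry, which an array of transcripts does not measure.

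The transcripts of the core differed little between the arrays. The receptor and the kinases age-1, pdk-1, akt-1 and akt-2 had log2 differences between 0.06 and 0.21, anatase minus control, on the scale of log2(intensity + 16). The largest differences were those of daf-16 at −0.37, of ist-1, which encodes the insulin receptor substrate, at 0.36 and of the kinase gene sgk-1 at −0.36. The lipid phosphatase gene daf-18 stood at −0.04 and the 14-3-3 gene ftt-2 at −0.09. In all, 6 core genes had higher and 4 had lower signal in the anatase array. This split was not stable: with the brightest probe set standing for each gene it was 4 higher and 6 lower, as daf-2 (−0.06), akt-1, daf-16 and ist-1 changed sides, and daf-18 changed sides with the arrays centred on their medians.

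None of the 10 genes reached a 2-fold difference, where 4.73% of all 13606 genes that passed a brightness filter did so. At 1.5-fold the count in the core was again 0 of 10, where 14.3% of all genes compared passed, 4.69% upward in anatase worms and 9.58% downward. With 10 genes, a count of 0 lies near the background at either threshold. The median difference of the core was 0.06, and that of all genes compared was −0.02. The sign of the core median was not fixed either: it was −0.03 with the brightest probe set of each gene. With a filter at median brightness, which left 7 core genes, it was −0.04. Without shared probe sets (probe sets of types that can also hybridise with related transcripts), which left 5, it was −0.04 too. The last medians thus cover fewer genes than the core. All 10 genes passed the brightness filter, daf-2 only just: its averaged intensity of 25.4 on the anatase array stood beside a limit of 25.2.

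**Figure D1:**
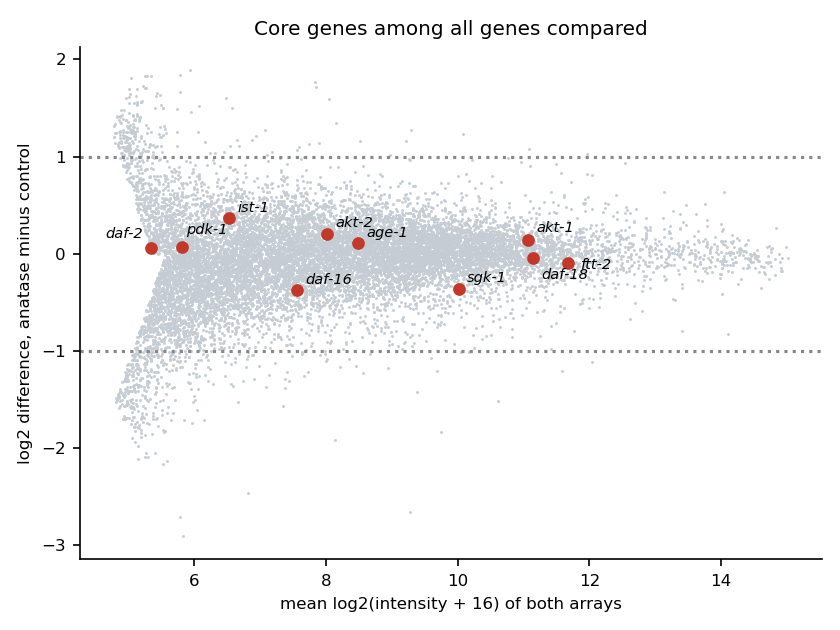
Each point is a gene, placed by its mean log2(intensity + 16) over both arrays (x) and by its log2 difference, anatase minus control (y); core genes are red and labelled, and the dotted lines mark 2-fold. The 10 core genes lie between −0.37 and 0.36, inside the 2-fold lines, and daf-2 and pdk-1 sit at the dim end where other genes scatter most.

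Genes of similar brightness give the scale against which a core gene can be read. The genes compared were split into 4 equal groups by mean brightness. In the dimmest group the middle 80% of differences, from the 10th to the 90th percentile, ran from −1.03 to 0.70. In the brightest group it ran from −0.24 to 0.26. Of the 10 core genes, 9 lay inside the range of their own group, and sgk-1 was the exception. Genes read by exactly 2 probe sets gave a technical spread: the SD of a single probe set's difference was 0.51 log2 units in the dimmest group, 0.39 in the second, 0.24 in the third and 0.18 in the brightest. These are spreads between probe sets on the same pair of RNA samples, not between worms.

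The receptor gene daf-2 was read by 4 probe sets, all of them shared ones. The brightest gave an intensity of 65.7 in anatase worms and 69.2 in control worms. The second gave 62.5 in anatase worms and 14.5 in control worms. These neighbours on the same transcript name thus read the receptor in different ways: near equal in the first, and higher in anatase worms in the second. The control reading of the second lay below an intensity of 16, where the files give no call of presence, so the size of that difference is not well fixed.

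The third daf-2 probe set gave 8.70 in anatase worms and 14.4 in control worms, and the fourth 2.60 in anatase worms and 15.8 in control worms. Both lay below an intensity of 16 on each array. The gene's mean log2 difference of 0.06 therefore averaged 1 higher and 3 lower probe sets, which spread from −0.77 to 1.36 (SD 0.92, n = 4 probe sets). With a pseudocount of 1, with either of 2 other scalings (loess and quantile) or with a filter at the median, daf-2 no longer passed the brightness filter.

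**Figure D2:**
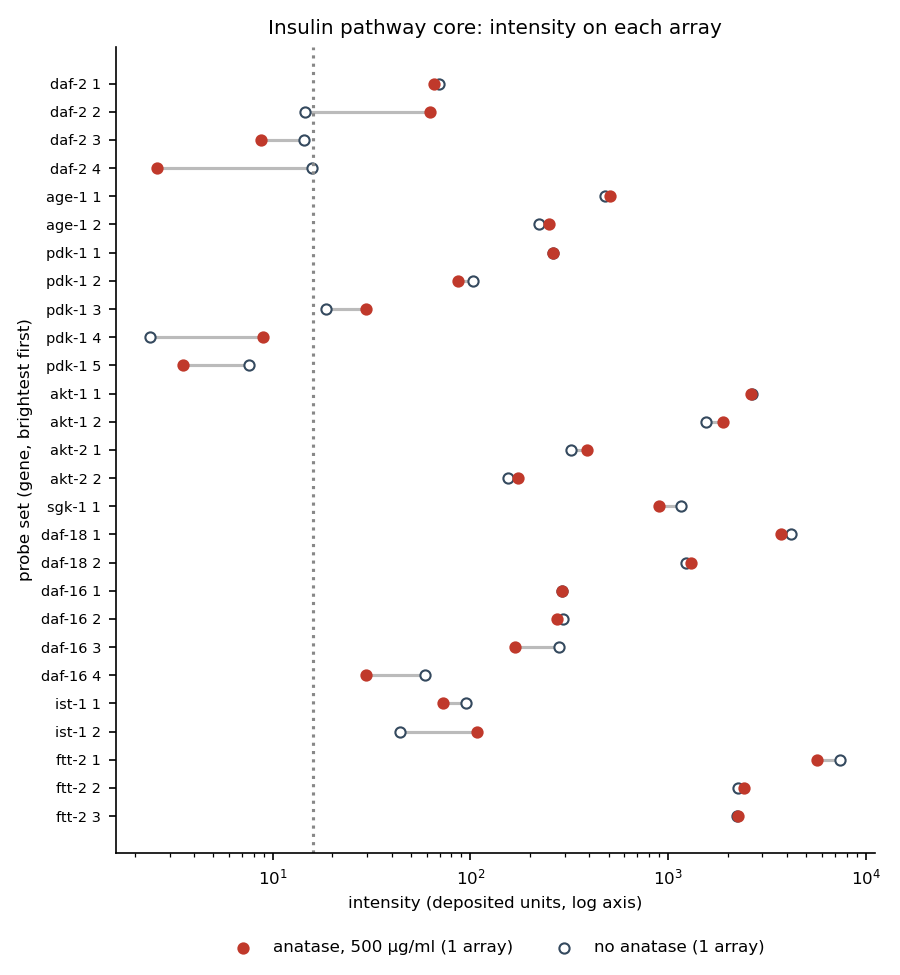
Intensity (x, log axis, deposited units) of each of the 27 probe sets of the core, numbered within a gene from the brightest, in anatase worms (filled red) and control worms (open); the dotted line marks an intensity of 16. Most pairs of points nearly coincide; the wide gaps belong to the dimmer probe sets of daf-2, pdk-1 and daf-16 and to 1 of ist-1.

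The ist-1 gene encodes the worm's insulin receptor substrate, an adaptor known in mammals to link the receptor to PI3-kinase. Its first probe set gave 73.0 in anatase worms and 95.1 in control worms. Its second gave 107.9 in anatase worms and 44.0 in control worms. Neither is a shared probe set, and they pointed in opposite directions, at −0.32 and 1.05 on the log2 scale.

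The gene mean of 0.36 for ist-1 thus rested on the second probe set, and it became −0.32 when the brightest probe set stood for the gene. The probe-set range of 1.37 was wide: among the 2293 genes with 2 probe sets the median range was 0.24 and the 90th percentile 0.73. Over the whole core, 2 of 27 probe sets passed 2-fold upward (1 of daf-2 and 1 of ist-1) and 0 downward. Of all 22548 probe sets, 1.76% passed 2-fold upward in anatase worms and 3.63% downward.

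The age-1 gene encodes the catalytic subunit of PI3-kinase. Its probe sets gave 505.6 and 248.5 in anatase worms, against 479.7 and 222.6 in control worms. Both were slightly higher in anatase worms, by 0.07 and 0.15 log2 units, less than the technical SD of 0.24 at this brightness. Its partner in the enzyme, the adaptor subunit gene aap-1, is not one of the 10 core genes and went the other way: 523.4 in anatase worms and 631.9 in control worms, a log2 difference of −0.26 from 1 shared probe set.

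The pdk-1 gene, whose kinase activates the AKT proteins, was read by 5 probe sets of very different brightness. The brightest gave 260.9 in anatase worms and 260.2 in control worms. The second gave 86.0 in anatase worms and 102.5 in control worms. The first was level between the arrays, at 0.0037 log2 units, and the second was lower by 0.22 in anatase worms.

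The other pdk-1 probe sets gave 29.7, 8.90 and 3.50 in anatase worms, against 18.6, 2.40 and 7.60 in control worms. Of these dim readings 2 were higher and 1 was lower in anatase worms. The gene mean was 0.07, with a range over probe sets from −0.28 to 0.44. The only pdk-1 probe set that is not a shared one is the dimmest, and read by it alone the gene no longer passed the brightness filter.

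The AKT kinases were bright enough to be read well. The akt-1 probe sets gave 2637.3 and 1890.9 in anatase worms, against 2654.2 and 1548.4 in control worms. The first was level at −0.0092, and the second was higher by 0.29, just outside the middle 80% of probe sets of its brightness. Both are shared probe sets, and the gene mean of 0.14 turned to −0.0092 with the brightest probe set alone.

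The akt-2 gene, a related kinase that overlaps with akt-1 in function, gave 390.9 and 174.7 in anatase worms, against 323.4 and 155.6 in control worms. Both probe sets were higher in anatase worms, by 0.26 and 0.15, for a gene mean of 0.21, a 1.15-fold difference. That stayed within the range of genes of the same brightness, and it kept its direction under every other processing choice tried, from 0.18 to 0.26.

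The sgk-1 gene encodes a kinase related to AKT that was first placed in the insulin pathway and also acts with the TOR complex that contains RICT-1. Its single probe set, not a shared one, gave 899.9 in anatase worms and 1159 in control worms. The log2 difference was −0.36, so the control signal was 1.28-fold that of anatase worms. This was the only core gene outside the middle 80% of its brightness group, which ran from −0.24 to 0.26 in the brightest genes. It was read by 1 probe set, so no second reading stands beside it, and its value ran from −0.37 to −0.30 under the other processing choices.

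The daf-18 gene encodes a lipid phosphatase that acts against AGE-1. Its probe sets, neither of them shared, gave 3750 and 1302.3 in anatase worms, against 4203.1 and 1231.4 in control worms. They differed in sign, at −0.16 and 0.08, and both stayed within the technical SD of 0.18 for bright genes. The gene mean of −0.04 turned to 0.01 with the arrays centred on their medians.

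The daf-16 gene encodes the FOXO factor on which the pathway converges. Its brightest probe set gave 290.6 in anatase worms and 289.9 in control worms. The second gave 274.3 in anatase worms and 293.7 in control worms. These were level or nearly so, at 0.0033 and −0.09 log2 units.

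The third daf-16 probe set gave 168.4 in anatase worms and 279.7 in control worms, and the fourth 29.5 in anatase worms and 58.7 in control worms. Both were lower in anatase worms, at −0.68 and −0.72, or 1.60-fold and 1.64-fold higher in control worms on the log2(intensity + 16) scale. The 4 readings of daf-16 thus fell into a level pair and a lower pair. The gene is known to make several transcript forms; the annotation does not say which form each probe set reads.

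The daf-16 mean of −0.37 came from the lower pair: it was 0.0033 with the brightest probe set alone and −0.09 with the only probe set that is not shared. The range over its probe sets, 0.72, was close to the median of 0.66 for the 72 genes compared that have 4 probe sets. The third probe set lay outside the middle 80% of probe sets of its brightness, which ran from −0.42 to 0.38. The fourth lay just inside its own range, from −0.73 to 0.43.

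The ftt-2 gene encodes a 14-3-3 protein that binds phosphorylated DAF-16. Its probe sets, all shared, gave 5688.9, 2412.7 and 2266.1 in anatase worms, against 7453.0, 2249.8 and 2243.1 in control worms. The brightest was lower by 0.39 and the others were level to slightly higher, at 0.10 and 0.01, so the gene mean was −0.09. The close relative par-5, the other 14-3-3 gene of the worm, had log2 differences between −0.22 and 0.36 over 3 probe sets and a mean of 0.04. Of the par-5 probe sets, 2 are shared ones too. Whether signal of these related genes is split between them was not tested.

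**Figure D3:**
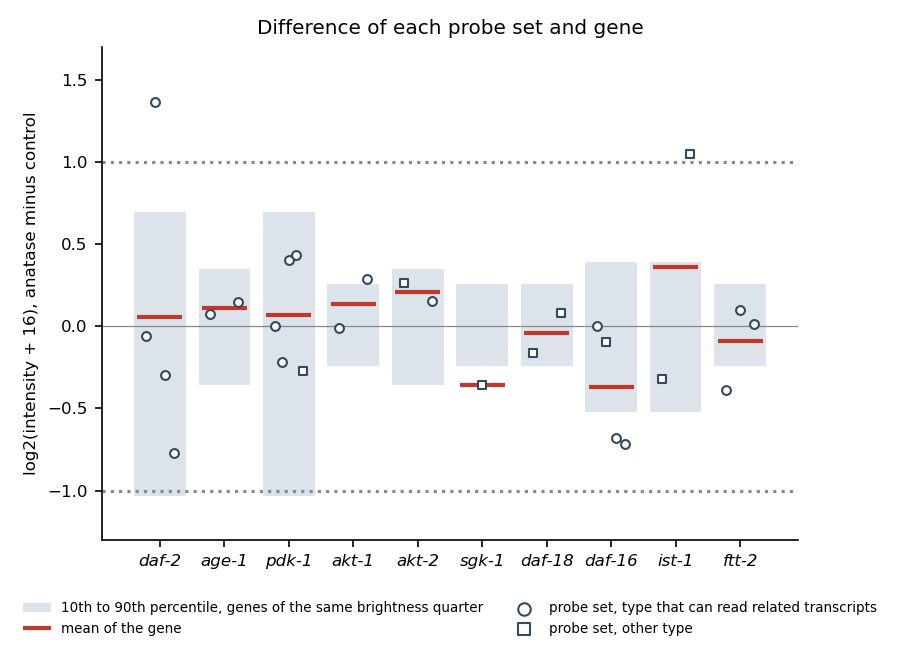
Log2 differences, anatase minus control (y), for each core gene (x): open circles are shared probe sets, open squares other probe sets, red bars the gene means, grey bands the 10th to 90th percentile of genes of the same brightness group, and dotted lines 2-fold. Of the red bars that of sgk-1 alone lies outside its band; the probe sets of daf-2, daf-16 and ist-1 spread widely about their means.

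Across the core, 14 probe sets were higher and 13 lower in anatase worms. Of the 27, 21 lay inside the middle 80% of all probe sets of their brightness and 6 outside, close to the 20% that lies outside by construction. Those outside were 1 each of daf-2, akt-1, sgk-1, daf-16, ist-1 and ftt-2. Only age-1, akt-2 and the singly read sgk-1 had probe sets that all differed in 1 direction. Mixed signs were common among all genes compared: 41.8% of those with 2 probe sets, 60% with 3, 72.2% with 4 and 77.8% with 5. Of the 2740 genes compared that have several probe sets, 8.61% had every probe set at least 0.3 log2 units from equal in 1 direction, and 0 of 9 such core genes did.

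**Figure D4:**
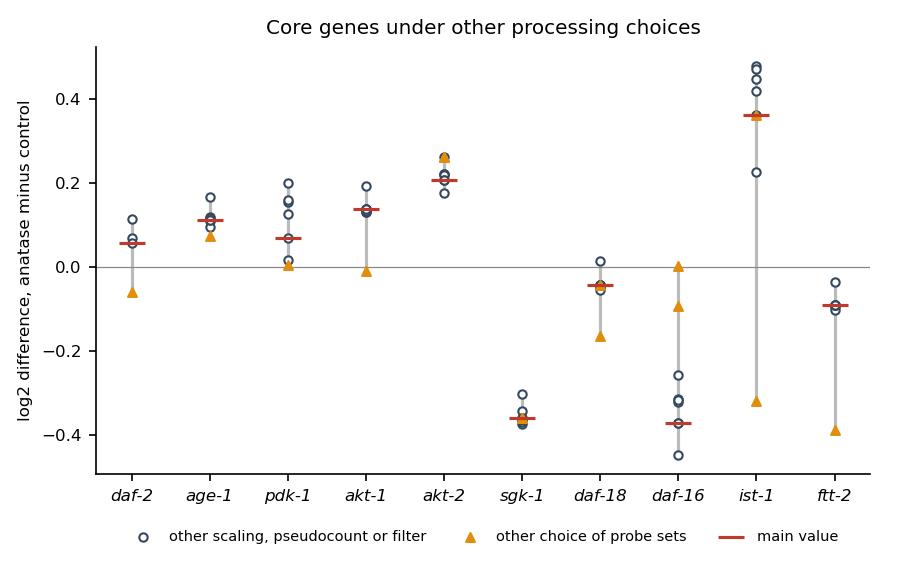
Log2 difference of each core gene, anatase minus control (y), as reported (red bar), under another scaling, pseudocount or brightness filter (open circles) and with another choice of probe sets (orange triangles). The values of ist-1 run from −0.32 with the brightest probe set to 0.48 with loess scaling, and those of daf-16 from −0.45 with a pseudocount of 1 to 0.0033 with the brightest probe set.

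Genes that act on the core were given as a list, with 18 of 25 listed genes compared: 9 were higher and 9 lower, 0 passed 2-fold, and the median was −0.0017, which was 0.05 with the arrays centred on their medians. The scaffold subunit gene paa-1 of the phosphatase PP2A gave 787.6 in anatase worms and 543.8 in control worms, a log2 difference of 0.52. The PP2A regulatory subunit gene pptr-1, known to direct that phosphatase to AKT-1, was at −0.12, with 883.0 in anatase worms and 958.3 in control worms. The adaptor gene shc-1 was at −0.65, the Ras activator gene sos-1 at −0.68 and the JNK-pathway kinase gene jkk-1 at 0.63, all from dim probe sets. eak-7, which acts beside akt-1, was at 0.08. The genes eak-3, eak-4, eak-6, sdf-9 and ddl-2 were too dim to be compared.

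The partners of DAF-16 in the nucleus and other factors that work with it were level as a group: of 18 compared, 9 were higher and 9 lower, with a median of −0.0031 that was 0.05 with median centring. The co-factor gene smk-1 was higher by all 3 of its probe sets, with a mean log2 difference of 0.31 and single values from 0.20 to 0.49. skn-1, whose factor directs the oxidative stress response and is itself a target of AKT and SGK kinases, was higher by 3 of 3 probe sets, from 0.14 to 0.97, with a mean of 0.51. pqm-1, which encodes a factor known to act opposite to DAF-16, stood at 0.18, hcf-1 at −0.12 and hsf-1, the heat shock factor gene, at −0.09. The importin gene imb-2 was at −0.32, and the co-activator gene cbp-1 at −0.41 by its mean but at 0.05 by its brighter probe set. elt-2, the intestinal GATA factor gene, was lower by both probe sets, with a mean of −0.60.

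The TOR and energy-sensing kinases and their partners had a median of 0.02 (−0.01 when the brightest probe set stood for a gene), with 11 of 19 higher and 0 past 2-fold. let-363, the gene of the TOR kinase itself, gave 858.3 and 452.8 in anatase worms, against 645.9 and 345.6 in control worms, a mean log2 difference of 0.39. Its activator gene rheb-1 was higher by the same 0.39, and the AMP kinase subunit gene aakb-2 was at 0.39 as well. daf-15, the gene of the TOR partner Raptor and known to be held down by DAF-16, was level at −0.02. rict-1, the gene of the TOR partner Rictor, stood at 0.27 by its mean but at −0.29 by its brighter probe set, and par-4 at 0.57 from largely dim probe sets.

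Phosphoinositide enzymes, which make or remove lipids of the kind AGE-1 makes, had a median of −0.08, with 10 of 16 lower. The phosphatase gene inpp-1 was the only one past 2-fold: 60.5 in anatase worms and 145.8 in control worms, a log2 difference of −1.08 from 1 probe set. Past 2-fold lower lay 3.07% of all genes compared. piki-1, a lipid kinase gene, was at −0.53, and the phospholipase gene plc-3 was at 0.44. The phospholipase gene plc-1 was at −0.28 by its mean. Its dimmest probe set was at −1.27, with 7.30 in anatase worms and 40.3 in control worms, and its others lay between −0.09 and 0.18. The parallel dauer branches also control entry into the arrested dauer larva. Their median was −0.05, or 0.0028 with median centring, with 10 of 15 lower and 0 past 2-fold. Beside the counts of both lists, 53.2% of all genes compared were lower. In the dimmest brightness group 61.1% were lower, and in the next 57.5%. In the dauer branches the serotonin synthesis gene tph-1 was at −0.92 at low brightness and daf-6 at −0.57. daf-5 was at −0.40 by its mean, with its dimmest probe set at −0.90 and the others at −0.17 and −0.14. The TGF-beta receptor gene daf-1 was at 0.38 by its mean but at −0.12 by its brighter probe set.

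Genes downstream of DAF-16 had list medians further from 0 than the core; whether the lists differ was not tested. Of 47 genes listed, from general knowledge, as higher in daf-2 mutants, 23 were compared, and 16 were higher and 7 lower in anatase worms, with a median of 0.28. None passed 2-fold, where 1.66% of all genes compared did in that direction, and 4 were at least 1.5-fold higher, where 4.69% of all genes were. Of the 25 genes listed as lower in daf-2 mutants, 21 were compared, and 7 were higher and 14 lower, with a median of −0.24. Of all genes compared, 53.2% were lower.

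The 4 genes past 1.5-fold in the first list were all heat shock genes, whose proteins guard others from misfolding. hsp-12.3 gave 2426.7 in anatase worms and 1221.4 in control worms, a log2 difference of 0.98. hsp-16.41 and hsp-70 were at 0.63 each, and hsp-12.6 at 0.61. Without the 6 heat shock genes compared, the other 17 genes had a median of 0.17, with 11 higher and 6 lower. Some heat shock genes are also controlled by the heat shock factor HSF-1 without DAF-16. Whether either factor acted on these genes here was not tested.

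The standard reporters of DAF-16 activity did not move together. sod-3, the mitochondrial superoxide dismutase gene, gave 314.7 in anatase worms and 280.4 in control worms, a log2 difference of 0.16. mtl-1, a metallothionein gene, gave 408.6 in anatase worms and 785.6 in control worms, a log2 difference of −0.92, opposite in sign to sod-3 and hsp-12.6. dod-3 was at 0.33, with 3678.8 in anatase worms and 2920.1 in control worms. Each of these was read by 1 probe set.

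Among the genes listed as lower in daf-2 mutants, dod-24 gave 87.6 in anatase worms and 253.4 in control worms, a log2 difference of −1.38. It was the only gene of this list past 2-fold lower, and its 1 probe set is a shared one. ins-7, an insulin-like peptide gene that is both a target of DAF-16 and a ligand known to act on DAF-2, gave 1008.8 in anatase worms and 1703.9 in control worms, a difference of −0.75. The peptide transporter gene pept-1 was at −0.90, dod-23 at −0.83 and the yolk protein gene vit-5 at −0.79.

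Intestine markers were also lower on balance. Of 11 intestine markers compared, 8 were lower in anatase worms, with a median of −0.32, and none was at 0. Their summed intensity was 34966 in anatase worms and 40382 in control worms. The bright protease gene asp-1 made up most of each sum, at 24437.1 in anatase worms and 26961.5 in control worms. The metallothionein gene mtl-2, named here after its value was seen, was the only marker past 2-fold, at −2.65. Its 3 probe sets, all shared, lay between −3.11 and −2.17. The count, the median and the summed intensity of the markers include mtl-2. The markers ges-1, ifb-2 and, at low intensity, the early endoderm gene end-1 went the other way, at 0.16, 0.12 and 0.85. pept-1 and ges-1 stand in both lists. Without vitellogenins and intestine markers, the other 14 genes of the second list had a median of −0.10, with 9 lower. The part of the intestine in these values was not tested. In RNA of whole worms, fewer cells of a type and less RNA per cell cannot be told apart.

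Other tissue lists had medians nearer 0, but some were as one-sided in their counts. Hypodermis markers were lower in 8 of 9, with a median of −0.09. Neuron markers were higher in 9 of 11 and sperm markers in 8 of 10, with medians of 0.10 and 0.14. Muscle markers were higher in 6 of 11 and germline markers in 7 of 12, with medians of 0.04 and 0.02. In these lists 0 markers passed 2-fold. Defining markers of each tissue were measured in both groups; among them the neuronal gene rgef-1 alone was too dim to be compared, at 6.20 in anatase worms and 2.30 in control worms. The arrays had a median intensity of 117.8 for anatase worms and 123.1 for control worms, and a 2%-trimmed mean of 494.6 for anatase worms and 495.1 for control worms.

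**Figure D5:**
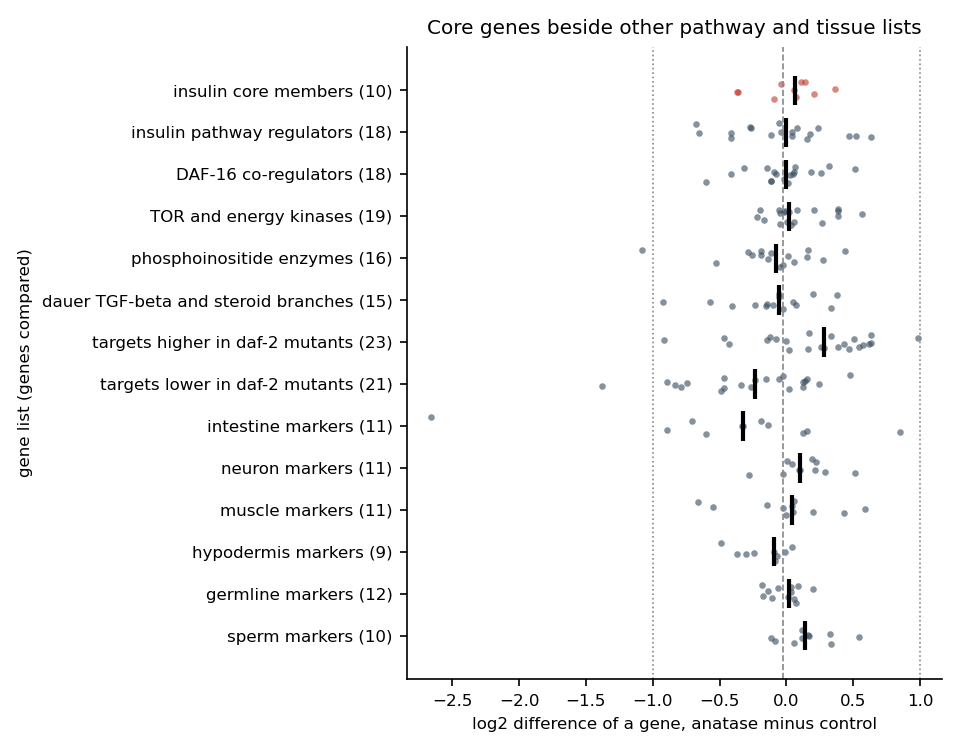
Each point is a gene, placed by its log2 difference, anatase minus control (x), in its list (y, with the number of genes compared; vertical scatter within a row carries no value); black bars are list medians, the dashed line the median of all genes compared, and dotted lines 2-fold. The core genes (red) lie between −0.37 and 0.36, with a median of 0.06 that was −0.03 with the brightest probe set. It was −0.04 with a stricter filter (7 core genes left) or without shared probe sets (5 left). Genes listed as higher in daf-2 mutants have a median of 0.28, genes listed as lower −0.24 and intestine markers, mtl-2 included, −0.32.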

How the data were processed

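The authors deposited probe set intensities of an Affymetrix array on a linear scale, 1 column per array. Transcriptome Analysis Console made them, per the submitters' processing notes; which version, summary method and scaling were used is not given in the sources. Both arrays are called replicate 3 in the labels. The values used here held no other array, so no other replicate could be analysed. The values have no detection calls. Probe sets with exactly 1 gene symbol were kept (20766 of 22548; 887 had several, 895 are unnamed here), and 99.7% of their gene numbers matched a RefSeq table.

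Differences were computed as log2(intensity + 16), anatase minus control, which understates folds of dim genes, and averaged over a gene's probe sets. A gene was compared if its brighter array reached that array's 25th percentile of all probe sets. No test was possible with 1 array per group. The steps were run on simulated data with planted differences larger than any in the core. That run says nothing about differences as small as those of the core genes. The core genes and all lists were chosen with earlier results of these data known. The gene daf-15 was taken out of the list of genes higher in daf-2 mutants after its value was seen, as DAF-16 represses it. Named genes were the core, the 4 largest differences of each pathway list and 18 genes of these lists fixed by name. The lists were not made blind to the data. Alternatives covered scaling, pseudocount, filter, probe sets and threshold. Computation used matplotlib 3.10.9, statsmodels 0.14.6, scipy 1.17.1, pandas 2.3.3 and numpy 2.4.6 under Python 3.11.15.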

Additional observations from a re-analysis of the deposited data

How the results depend on the processing

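No paired analysis was possible because the groups share only 1 replicate number. In every alternative that gave a value, 0 core genes passed 2-fold, and at 1.5-fold and 3-fold the count was 0 too. Of all genes compared, 4.73% passed 2-fold in the main setting and 14.3% passed 1.5-fold. A count of 0 among 10 genes or fewer lies near such shares and does not set the core apart. The core median turned to −0.03 with the brightest probe set. It turned to −0.04 with the brightness filter at the median (7 core genes left) or without shared probe sets (5 left). With a pseudocount of 1, all genes at least 2-fold higher and lower numbered 423 and 803. They numbered 12 and 24 with a pseudocount of 64, 25 and 54 with the filter at the median, and 23 and 76 at 3-fold. At 1.5-fold they were 638 and 1303 of 13606, or 4.69% and 9.58%. The genes compared change with the filter and the pseudocount, and among the alternatives a share is given here for 1.5-fold only. The median of genes lower in daf-2 mutants was −0.16 with loess, a pseudocount of 64 or the brightest probe set, and −0.10 without vitellogenins and intestine markers. That last choice and the median of 0.17 for genes higher in daf-2 mutants without heat shock genes were made after seeing the data. Counts of 2-fold genes in the pathway lists changed by 1 in several settings. These small counts were not set against the share of all genes in each setting. Phosphoinositide enzymes lower were 0 with loess, quantile normalization, a pseudocount of 64 or a 3-fold threshold. Insulin regulators were 1 higher and 1 lower with a pseudocount of 1, 1 lower without shared probe sets or with the brightest one, and 1 higher and 2 lower at 1.5-fold. TOR and energy kinases were 1 higher with a pseudocount of 1. Dauer branch genes were 1 lower with a pseudocount of 1 or at 1.5-fold, and 1 higher without shared probe sets or with the brightest one. DAF-16 co-regulators were 1 lower at 1.5-fold. Genes higher in daf-2 mutants were 1 higher with median centring, and 4 higher and 1 lower at 1.5-fold. Genes lower in daf-2 mutants were 0 lower without shared probe sets or at 3-fold, and 5 lower at 1.5-fold. The cause of these shifts was not tested. The core counts over probe sets are limited by signal: 4 of 27 probe sets were under an intensity of 16 on both arrays.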

Other observations

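Agreement between probe sets picked out a few pathway genes outside the core; this rule was chosen after the data were seen. It asks that every probe set of a gene with several lie at least 0.3 log2 units from equal in 1 direction, as 8.61% of 2740 such genes did. Of 10 TOR and energy kinase genes with several probe sets, 3 met it, all higher in anatase worms: let-363, rheb-1 and par-4. The probe sets of let-363 were at 0.37 and 0.40, and those of rheb-1 at 0.33 and 0.45. Of par-4, the kinase gene that activates AMP kinase, 2 of 3 probe sets gave intensities under 20 on each array. The Raptor gene daf-15 did not meet it, with probe sets at −0.04 and 0.0078.

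Lower in anatase worms by the same rule were shc-1 and sos-1, 2 of 10 insulin regulators with several probe sets. So were elt-2 (1 of 13 DAF-16 co-regulators), piki-1 (1 of 9 phosphoinositide enzymes) and dod-19 (1 of 3 genes lower in daf-2 mutants). Of the dauer branch genes, 0 of 7 met the rule. Over all 2740 genes with several probe sets, 152 met it downward and 84 upward. In the list of genes higher in daf-2 mutants 1 of 4 met it, upward: the trehalose synthase gene tps-1. Its intensities were 1431.7 and 1118.8 in anatase worms, against 1121.4 and 736.1 in control worms.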
